A study of Drosophila melanogaster with 8 samples.

Results

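The gene ecd (ecdysoneless) and 8 genes for proteins of the U4/U6.U5 particle were followed through wing discs of Drosophila melanogaster with and without RNAi against ecd. The 9 genes were taken by name, with no threshold on their values, although earlier results of these data were known when they were chosen: ecd; the U5 protein genes Prp8, Brr2, CG4849 (Eftud2), CG3436 (U5-40K) and Prp6; and the U4/U6 protein genes Prp3, Prp31 and U4-U6-60K. All 9 had a row among the 18354 gene rows measured, and all 9 passed the minimum mean of 10 normalized counts that left 9380 genes in the test. The 4 libraries labelled ecd-RNAi came from discs with nub-Gal4, UAS-mRFP and UAS-ecd-RNAi. The 4 control libraries came from discs with nub-Gal4 and UAS-mRFP alone. Both groups therefore carry the driver and the red fluorescent protein, larvae of both were kept at 25 °C, and discs were dissected on day 7 after egg laying, 150 pooled per library. The nub-Gal4 driver is active in the wing pouch and part of the hinge, so each library also holds the notum and other cells in which no hairpin was driven. Neither the RNAi line nor the sex of the larvae is given in the labels.

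The spliceosome removes introns in a cycle, and its largest preformed part is the U4/U6.U5 particle, often called the tri-snRNP. In it the U6 RNA is held inactive by pairing with U4 until the helicase Brr2, a U5 protein, unwinds the pair on the scaffold of Prp8. Ecd binds Prp8, and in flies and human cells it is needed for Prp8 to stay abundant and for splicing. In humans, mutations in the counterparts of Prp8, Brr2, Prp6, Prp3, Prp31 and U4-U6-60K cause retinitis pigmentosa, a degeneration of photoreceptors.

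Normalized counts summed to between 27403900 and 32623600 in libraries labelled ecd-RNAi and between 35111000 and 37879700 in control libraries. Low values lay on steps that put the depth at roughly 31100000 to 37600000 reads in libraries labelled ecd-RNAi and 29500000 to 36500000 in control. Ribosomal RNA took 26.6 to 35.2% of the signal in libraries labelled ecd-RNAi and 48.9 to 52.9% in control. All 7 wing disc markers (nub, vg, sd, ap, wg, rn and pdm2) were present in every library, with sums of 34251 to 35683 normalized counts in libraries labelled ecd-RNAi and 43771 to 45980 in control. Of these 6 were called lower and wg, the Wnt ligand gene, higher (1.52-fold). The pouch markers nub, pdm2, rn, vg, Dll, dve and bs summed to between 19854 and 21998 normalized counts in libraries labelled ecd-RNAi and between 32607 and 34939 in control, and 7 of 7 were called lower. Of these nub changed least (log2 fold change -0.12, limma adjusted p = 0.0269, with overlapping groups) and bs most (-2.24). The markers nub, vg, rn and pdm2 are in both lists. Among all genes tested 31.7% were called lower and 30.8% higher, and the marker counts are to be read against that. Of 6 hemocyte markers 2 were called higher (sums of 1383 to 2980 in libraries labelled ecd-RNAi and 1137 to 1543 in control). All 4 tracheal markers were called lower (10971 to 12666 and 19619 to 20692), as were 4 of 5 adult muscle precursor markers (2677 to 3154 and 4210 to 4540). Most of the tracheal sum came from pio and vvl, with control means of 10401 and 8009. The log2 fold changes were -1.05 for pio, -0.93 for trh, -0.40 for vvl and -0.28 for btl. Whether these markers are specific to tracheal cells in the disc was not tested. Of the fat body markers 1 of 4 was called lower (510 to 4055 and 862 to 6078), and of the head and brain markers also 1 of 4 (316 to 426 and 355 to 459). Salivary gland markers summed to 1.67 to 8.74 and 74.6 to 154, and both of those that could be tested were called lower. These, Sgs7 and Sgs8, averaged 2.06 and 2.44 normalized counts in libraries labelled ecd-RNAi and 73.5 and 25.2 in control. They passed the minimum mean of 10 only through control, so the filter favoured lower calls in this list. The head and brain marker called lower, brp, also passed only through control (9.03 and 20.9). In bulk RNA, fewer cells of a type and less RNA per cell cannot be told apart, and the part that such shifts play in the results on these 9 genes was not tested.

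The transcript of ecd, the gene aimed at, was higher in the libraries labelled ecd-RNAi. It stood at 1416, 1208, 1307 and 1462 normalized counts in ecd-RNAi replicates 1 to 4 and at 1052, 1015, 1047 and 998 in control replicates 1 to 4. The lowest of the libraries labelled ecd-RNAi, replicate 2, lay above the highest control, so the groups did not overlap. The log2 fold change was 0.39 (SE 0.06, limma with Benjamini-Hochberg adjusted p = 0.000245). This goes against the label, and every direction below compares libraries by their label, not by a measured loss of ecd. Values are per gene, and reads from the hairpin of the transgene are not separated from those of the endogenous transcript. The spread among the libraries labelled ecd-RNAi, a coefficient of variation of 8.45%, was the largest of the 9 genes in that group, while the control libraries varied by 2.52%. Across all genes tested, 22.5% had a larger log2 fold change than ecd.

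Of the 5 U5 protein genes, 2 rose and 3 fell, and in none of them did the groups overlap. Among all 9380 genes tested, 30.8% were called higher and 31.7% lower at an adjusted p under 0.05, and in 57.2% the groups did not overlap. Prp8, the scaffold at the catalytic centre and the partner of Ecd, was at 8818, 8779, 8289 and 9024 normalized counts in libraries labelled ecd-RNAi and at 10488, 11320, 11004 and 10988 in control. Every library labelled ecd-RNAi was lower than every control, with means of 8727 ± 311 and 10950 ± 344 (SD, n = 4). Prp8 fell by 0.33 on the log2 scale (SE 0.04, limma adjusted p = 3.31e-05). After quantile normalization its log2 fold change was -0.16, and it was still called.

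Brr2, the helicase that unwinds U4 from U6 and that sits on Prp8, moved the other way. It had 10174, 11657, 10341 and 10390 normalized counts in libraries labelled ecd-RNAi, against 6160, 6830, 6697 and 6486 in control. Replicate 2 stood above the other libraries labelled ecd-RNAi, and all 4 were well above the controls. Brr2 rose 1.63-fold (log2 fold change 0.70, SE 0.05, limma adjusted p = 1.11e-06). Prp6, which in yeast and human particles bridges U5 and U4/U6, had nearly the same fold: it was at 1876, 1996, 2145 and 1960 in libraries labelled ecd-RNAi and at 1226, 1111, 1316 and 1232 in control. The groups did not overlap. Its log2 fold change was 0.71 (SE 0.06, limma adjusted p = 2.72e-06).

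The other U5 genes had lower values in libraries labelled ecd-RNAi. CG3436, whose human counterpart is the WD repeat protein U5-40K, was at 789, 729, 790 and 862 normalized counts in libraries labelled ecd-RNAi and at 1058, 1135, 959 and 1096 in control. It fell by 0.42 on the log2 scale (SE 0.07, limma adjusted p = 0.000275), the deepest fall of the 9 genes. CG4849, the counterpart of the GTPase Eftud2, which in yeast controls Brr2 together with Prp8, was at 2148, 2089, 2181 and 2207 in libraries labelled ecd-RNAi and at 2366, 2483, 2328 and 2482 in control. It fell by 0.16 on the log2 scale (SE 0.04, limma adjusted p = 0.00257), and this call was lost with quantile normalization (log2 fold change -0.03, adjusted p = 0.478).

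**Figure D1:**
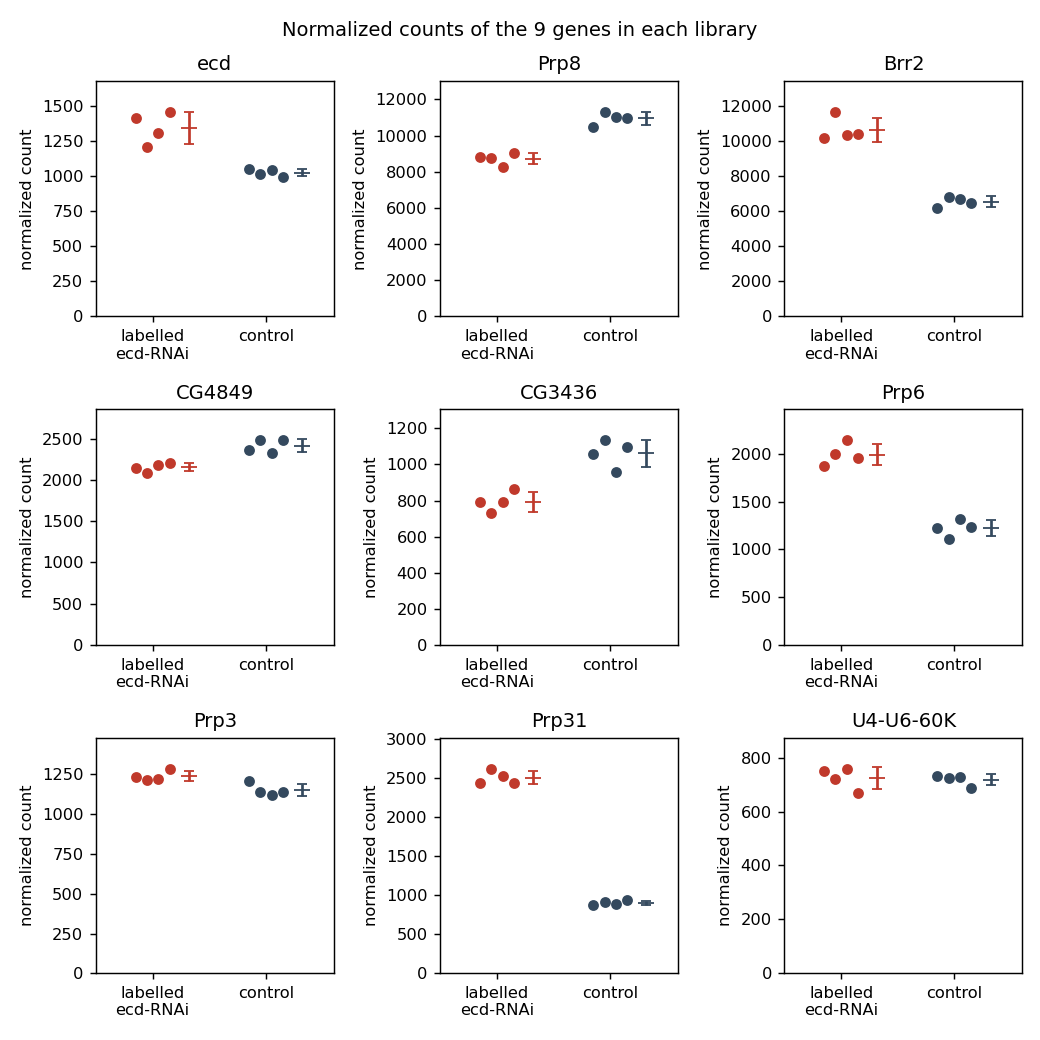
Normalized counts (vertical axes, from 0) of the 9 genes in each of the 4 libraries labelled ecd-RNAi (red points) and the 4 control libraries (dark points), with the mean and SD beside each group. The groups are apart for all genes but U4-U6-60K, and Prp31 has the largest ratio between its groups, with 2430 to 2615 in libraries labelled ecd-RNAi against 868 to 937 in control.

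Among the 3 U4/U6 protein genes, Prp31 rose most, Prp3 rose slightly and U4-U6-60K was not called. Prp31, which clasps the U4 RNA and joins it to the rest of the particle, had 2430, 2615, 2528 and 2435 normalized counts in libraries labelled ecd-RNAi, against 868, 908, 892 and 937 in control. Both groups were tight, with coefficients of variation of 3.51% and 3.20%. The ratio of the means was 2.78 and the log2 fold change 1.47 (SE 0.04, limma adjusted p = 3.72e-09). Prp31 ranked at place 14 of the 9380 genes by p-value, although 5.84% of them had a larger log2 fold change.

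Prp3 and U4-U6-60K form a pair of proteins bound to the U4/U6 duplex. Prp3 was at 1231, 1214, 1221 and 1283 normalized counts in libraries labelled ecd-RNAi and at 1203, 1137, 1120 and 1137 in control. Its lowest library labelled ecd-RNAi was only just above its highest control. The log2 fold change was 0.11 (SE 0.04, limma adjusted p = 0.0340). That call was lost in 8 of the 17 alternatives tried: without the filter on low values, with the replicate block, and without ecd-RNAi replicate 1, 3 or 4 or control replicate 2, 3 or 4. The adjusted p over all alternatives ran from 0.0175 to 0.0932. The authors' deposited table gives 0.0789 for Prp3. U4-U6-60K, the counterpart of human PRPF4, was at 749, 721, 759 and 668 in libraries labelled ecd-RNAi and at 732, 725, 728 and 688 in control. The groups overlapped fully, and the log2 fold change was 0.01 (SE 0.05, limma adjusted p = 0.861).

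In all, 5 of the 9 genes were called higher and 3 lower, and the groups did not overlap for 8 of the 9. Calls were common among all genes (30.8% higher, 31.7% lower, 57.2% without overlap), and the numbers for the 9 are to be read against that. The median log2 fold change of the 9 genes was 0.11, beside 0.0014 for all genes tested. Of the 9 genes, the authors' deposited table gives 4 higher and 3 lower at an adjusted p under 0.05, where 24.1% and 23.4% of all genes with an adjusted p were higher and lower. Its log2 fold changes for the 9 genes lay within 0.0045 of those from limma.

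Read per length, the genes changed places in the order of their levels. In libraries labelled ecd-RNAi the order by normalized counts per kb of exon was Brr2 (1586 ± 102), Prp31 (1344 ± 47.2), Prp8 (1173 ± 41.8), CG4849 (690 ± 16.3), ecd (612 ± 51.7), Prp6 (590 ± 33.2), Prp3 (575 ± 14.6), CG3436 (574 ± 39.4) and U4-U6-60K (352 ± 19.7). In control it was Prp8 (1471 ± 46.2), Brr2 (976 ± 43.6), CG4849 (773 ± 25.6), CG3436 (769 ± 54.6), Prp3 (534 ± 17.0), Prp31 (484 ± 15.5), ecd (466 ± 11.8), Prp6 (361 ± 24.9) and U4-U6-60K (349 ± 9.88), each as SD over 4 libraries. Brr2 and Prp31 thus stood above Prp8 in libraries labelled ecd-RNAi, while Prp8 led in control. In libraries labelled ecd-RNAi the ranges of neighbours in that order overlapped from ecd down to CG3436. In control they overlapped between CG4849 and CG3436, between Prp31 and ecd, and between Prp6 and U4-U6-60K.

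**Figure D2:**
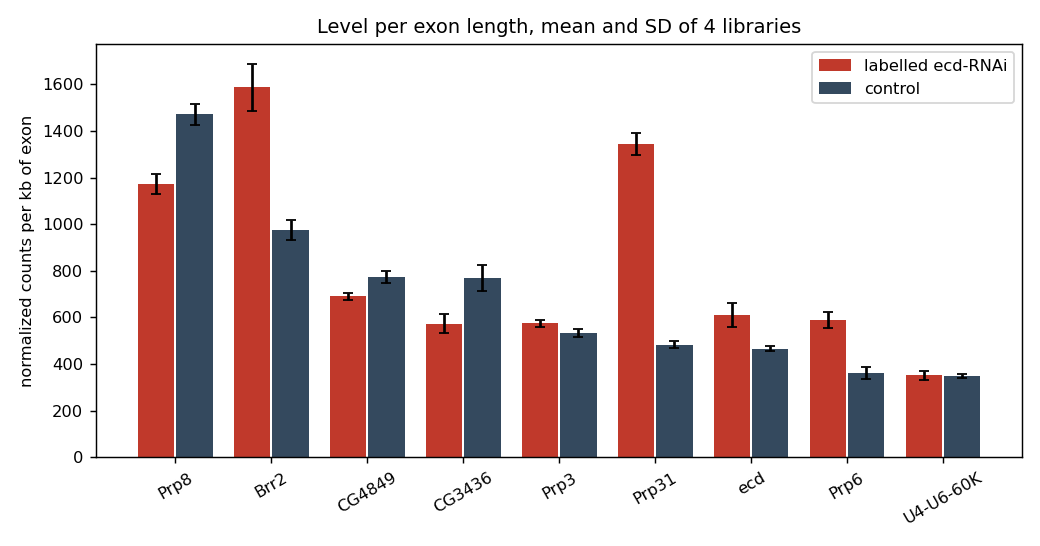
Normalized counts per kb of merged exon (vertical axis, from 0) for the 9 genes, ordered by their control level, with bars for the mean of 4 libraries labelled ecd-RNAi (red) and 4 control libraries (dark) and the SD as error bars. Brr2 and Prp31 pass Prp8 in libraries labelled ecd-RNAi (1586 and 1344 against 1173), while Prp8 is highest in control (1471).

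Proportions between transcripts of the particle differed between the groups for most pairs examined. Each ratio restates the fold changes of both its genes, and the groups did not overlap for 57.2% of all single genes tested. Ratios of other gene pairs were not examined. The ratios of CG3436 and Prp6 to Prp8 and of Brr2 to Prp31 were added to the pairs first planned. The ratio of Brr2 to Prp8, both per kb, was 1.28, 1.47, 1.38 and 1.28 in libraries labelled ecd-RNAi and 0.652, 0.669, 0.675 and 0.655 in control. Per kb, Brr2 was thus above Prp8 in every library labelled ecd-RNAi and below it in every control. The ratio of Prp6 to Prp8 was 0.468 to 0.569 in libraries labelled ecd-RNAi and 0.216 to 0.263 in control, also without overlap. For ecd to Prp8 the ranges were 0.465 to 0.547 and 0.303 to 0.339.

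Within U4/U6, Prp31 had 2.19 to 2.49 times the per-kb level of Prp3 in libraries labelled ecd-RNAi and 0.834 to 0.952 times in control. Against U4-U6-60K it had 3.59 to 4.03 times in libraries labelled ecd-RNAi and 1.31 to 1.51 times in control. The 2 U5 genes that fell with Prp8 kept closer to it. The ratio of CG3436 to Prp8 ran from 0.448 to 0.515 in libraries labelled ecd-RNAi and from 0.470 to 0.544 in control, so the groups overlapped. That of CG4849 to Prp8 ran from 0.567 to 0.627 in libraries labelled ecd-RNAi and from 0.504 to 0.538 in control. Brr2 and Prp31, which both rose, did not rise in step: their ratio was 1.14 to 1.24 in libraries labelled ecd-RNAi and 1.92 to 2.09 in control. These ratios are descriptions and were not tested.

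**Figure D3:**
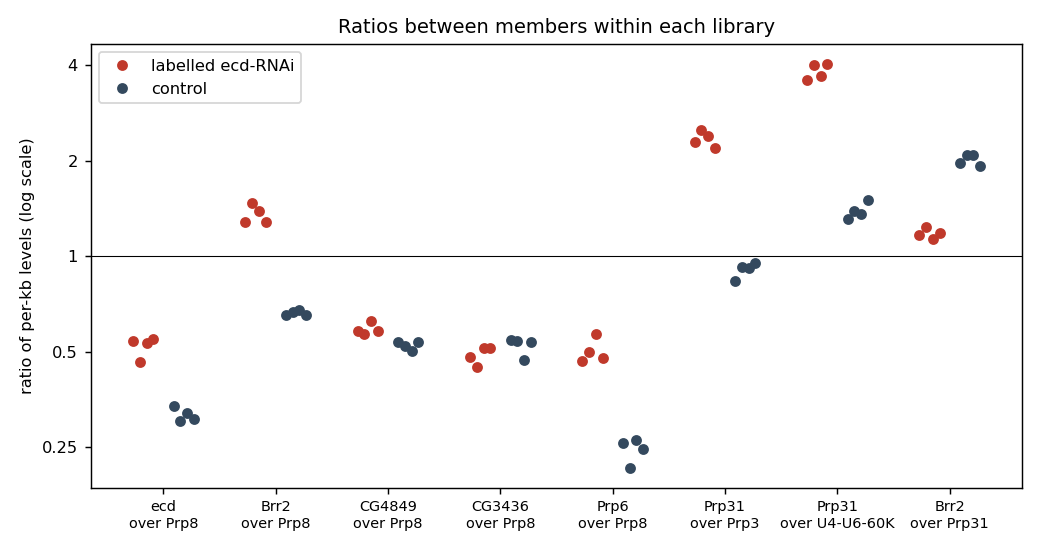
Ratios of per-kb levels between pairs of the 9 genes (vertical axis, log scale) in each library labelled ecd-RNAi (red points, left of each pair) and each control library (dark points, right). Brr2 over Prp8 is 1.28 to 1.47 in libraries labelled ecd-RNAi and 0.652 to 0.675 in control, and only CG3436 over Prp8 has overlapping groups.

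The genes differ in position and structure (BDGP6, Ensembl annotation, 1-based). On chromosome arm 3L lie ecd (2263581 to 2265857), Prp31 (15159100 to 15161138), Brr2 (15960836 to 15967872), U4-U6-60K (17511855 to 17513912), Prp6 (18905372 to 18908974) and Prp3 (19910300 to 19912504). CG3436 lies on 2L (156029 to 157666), Prp8 on 2R (12154258 to 12162998) and CG4849 on 3R (27963415 to 27966958). All 5 genes called higher were thus among the 6 on 3L, and the 3 called lower lay on the other 3 major autosome arms. Of all 1808 tested genes on 3L, 31.9% were called higher and 31.6% lower. By intron number the genes range from 13 in Prp8, 6 in CG4849 and 5 in Brr2, through 3 in Prp6 and Prp31, 2 in Prp3 and CG3436 and 1 in ecd, to 0 in U4-U6-60K.

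Several of the genes overlap others, and without a stated strand setting shared reads cannot be assigned. The exons of ecd share 35 bp of its 3′ UTR with CG13807 on the opposite strand, 1.59% of its exon length. CG13807 was at 112 ± 7.84 normalized counts in libraries labelled ecd-RNAi and 107 ± 11.9 in control (limma adjusted p = 0.585), both far below ecd. Prp31 shares 224 bp of its 3′ UTR with CG7011 on the opposite strand, and CG7011 fell by 0.25 on the log2 scale (570 ± 21.2 against 679 ± 24.3, limma adjusted p = 0.00117) while Prp31 rose. Prp6 shares 505 bp of its 3′ end with Ir75d and with COX6AL2 on the opposite strand, which were near the floor: Ir75d at 7.55 ± 3.17 and 2.88 ± 2.03, and COX6AL2 at 1.77 ± 0.134 and 1.77 ± 1.54, in libraries labelled ecd-RNAi and in control. Prp3 shares 100 bp with Mtr3, an exosome subunit gene on the opposite strand, at 308 ± 22.1 in libraries labelled ecd-RNAi and 468 ± 37.7 in control. Prp8 shares 6 bp with CG8407 (10.6 ± 2.53 and 28.2 ± 8.23) and CG3436 shares 2 bp with ND-15 (600 ± 39.3 and 729 ± 23.4). An intron of Prp8 holds scaRNA:PsiU2-55, a guide RNA gene, at 161 ± 46.8 in libraries labelled ecd-RNAi and 267 ± 41.1 in control (limma adjusted p = 0.00761). Its groups overlapped, with ecd-RNAi replicate 1 at 222 and control replicate 3 at 206. The microRNA gene mir-988, in another intron of Prp8, was at 0 in every library.

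Genes with the most similar pattern were sought for ecd, Prp8 and Prp31 among 8634 other protein-coding genes, by the root mean square difference of centred log2 values over the 8 libraries. Closest to ecd were CG17568 (difference 0.04), Ppox (0.06), an enzyme of haem synthesis, and CG9328 (0.06), with ratios of means of 1.29, 1.28 and 1.30. Closest to Prp8 were emb (0.02), the nuclear exportin, dom (0.02), a chromatin remodeller, and msps (0.03), a microtubule polymerase, with ratios of 0.790, 0.782 and 0.802. Closest to Prp31 were CG1582 (0.06), IRSp53 (0.06) and CG7627 (0.06), with ratios of 2.87, 2.99 and 2.77. Since both groups enter this measure, likeness here mostly means a fold of like size.

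Further proteins of the particle and its helpers, 27 genes in 4 lists, had log2 fold changes from -0.65 to 0.97. Of the 27, 5 rose (18.5%), 12 fell (44.4%) and 10 were not called, beside 30.8% higher and 31.7% lower among all genes tested. The counts for the single lists, of 5 to 8 genes each, are to be read against the same shares, and none is called particular to its list. Among 7 other U5 and tri-snRNP proteins, 1 rose, 3 fell and 3 were not called (median log2 fold change -0.06, beside 0.0014 for all genes). The gene that rose was CG6686, the counterpart of SART1, which in humans is specific to the joined U4/U6.U5 particle. It was at 3139, 3479, 3320 and 3196 normalized counts in libraries labelled ecd-RNAi and at 1686, 1721, 1757 and 1554 in control, with no overlap (log2 fold change 0.97, SE 0.05, limma adjusted p = 8.69e-08). CG17266, counterpart of the prolyl isomerase PPIH that binds the Prp3 pair, fell by 0.37 on the log2 scale (by 0.52 with quantile normalization). The small U5 protein gene Dim1 fell by 0.22 (by 0.39 with quantile normalization) and hoip, whose product binds the U4 RNA next to Prp31, by 0.16. The hoip groups overlapped, and its call (limma adjusted p = 0.0345) was lost at equal protein-coding sums, with quantile normalization, without the mean trend, and without ecd-RNAi replicate 1 or 2 or control replicate 1, 3 or 4 (limma adjusted p of 0.0546 to 0.403). The helicase gene CG10333 (Prp28), holn1 and Usp39 had log2 fold changes of -0.06, 0.12 and -0.03 and were not called.

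The list for the LSm ring that caps U6 held 7 genes and the U6 recycling factor Rnp4F. All 8 had lower means in libraries labelled ecd-RNAi, and 5 were called lower, beside 31.7% of all genes (median log2 fold change -0.20). The number called lower was 7 with quantile normalization, 3 after scaling to equal protein-coding sums, and 3 without ecd-RNAi replicate 1 or 2 or control replicate 1 or 4. CG9344 (LSm6) fell by 0.65, with 479, 441, 406 and 441 normalized counts in libraries labelled ecd-RNAi and 677, 661, 683 and 742 in control (limma adjusted p = 8.86e-06), and LSm7 fell by 0.36 on the log2 scale. CG6610 (LSm5), CG10418 (LSm2) and Rnp4F fell by 0.25, 0.21 and 0.18, with overlapping groups for CG10418 and Rnp4F. The calls of CG6610 and CG10418 were the ones lost in the settings that left 3. That of CG6610 was also lost with the replicate block and without ecd-RNAi replicate 3 or 4 (limma adjusted p of 0.0515 to 0.0645). That of CG10418 was also lost without ecd-RNAi replicate 3 (limma adjusted p = 0.0559), and the authors' deposited table gives 0.0652 for it. CG17768, CG2021 and LSm3 were not called. CG2021, listed for LSm8, had a log2 fold change of -0.09 (limma adjusted p = 0.466), with overlapping groups. CG17768 was listed for LSm4, but the annotation gives the symbol LSm-4 to another gene at the same locus, with shared exons, so the listing and the split of reads between them are uncertain. The gene LSm-4, looked at after the others, was at 184 ± 17.6 normalized counts in libraries labelled ecd-RNAi and 182 ± 24.3 in control (limma adjusted p = 0.932), so with it in place of CG17768 the means would not all be lower.

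Of 7 chaperones that build the particle, 2 were called higher, 2 lower and 3 neither, shares near those of all genes (30.8% and 31.7%). CG12320 is the counterpart of Aar2, which in yeast holds Prp8 in an assembly intermediate before Brr2 can bind. It was at 307, 318, 322 and 284 normalized counts in libraries labelled ecd-RNAi and at 186, 199, 201 and 213 in control, with no overlap (log2 fold change 0.62, SE 0.07, limma adjusted p = 3.49e-05). With quantile normalization its log2 fold change was 0.44, and it was still called. Pih1D1, the R2TP subunit whose human counterpart binds ECD, rose by 0.29 on the log2 scale. The AAA+ gene pont fell by 0.26 and Hsp83, the HSP90 gene, by 0.21 (by 0.50 with quantile normalization), while rept, the partner of pont, and the R2TP gene spag had log2 fold changes of -0.07 and -0.01 and Nufip 0.18.

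Of 5 factors that act as the particle enters or is activated, 2 rose, 2 fell and 1 was not called, beside 30.8% and 31.7% of all genes. The changes were small: beag (RED) rose by 0.23 and the kinase gene Prp4k by 0.11, and Smu1 and Prp38 fell by 0.20 and 0.18 on the log2 scale. The Prp4k call (limma adjusted p = 0.0260) was lost with the replicate block and without ecd-RNAi replicate 2 or 4 or control replicate 3 or 4 (limma adjusted p of 0.0516 to 0.0677). The beag call (limma adjusted p = 0.0110) was lost with quantile normalization (0.108).

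**Figure D4:**
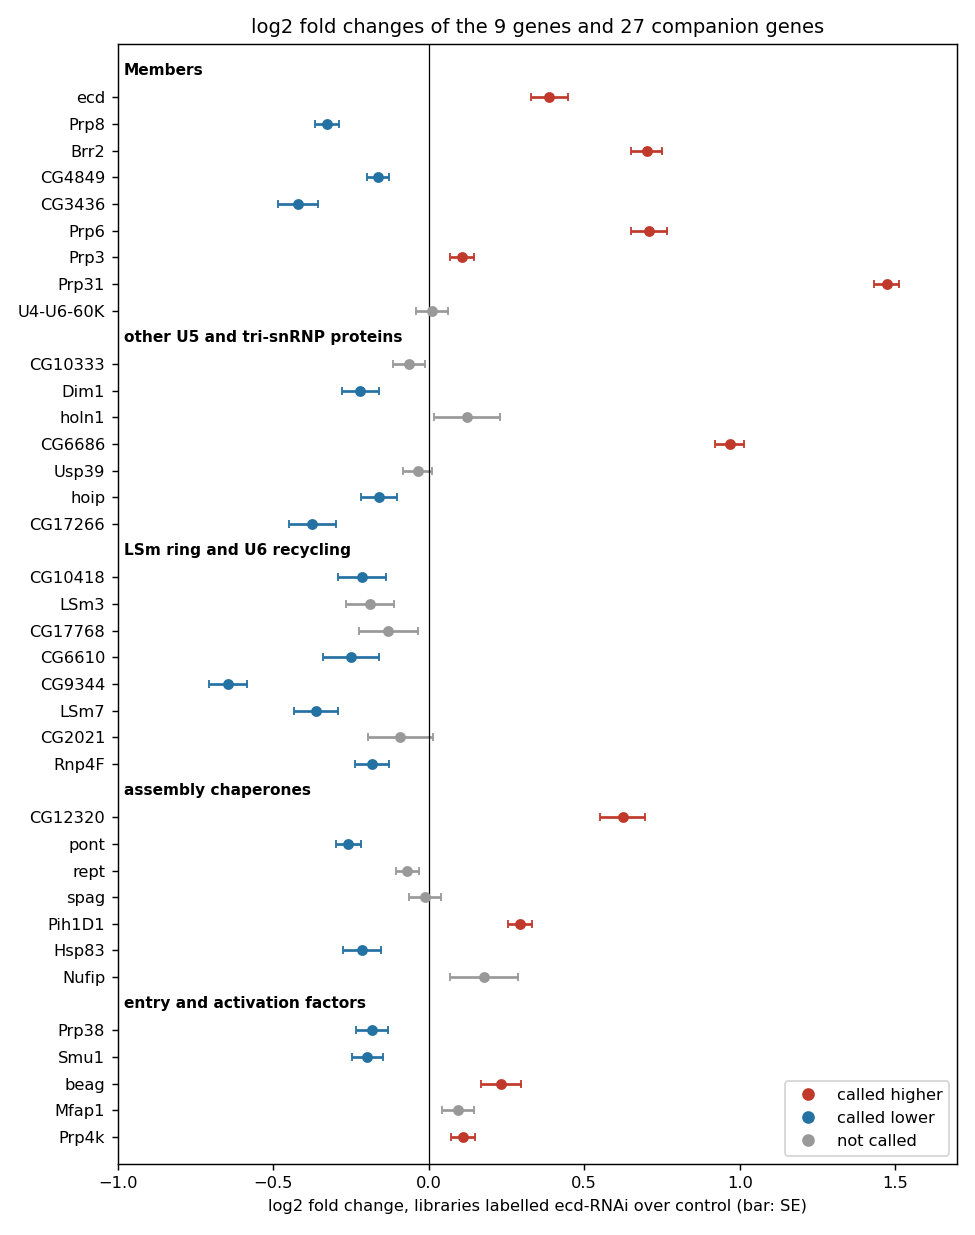
Log2 fold changes of libraries labelled ecd-RNAi over control (horizontal axis, points with the SE as bars) for the 9 genes and for 27 genes in 4 lists of companion factors, coloured by whether they were called higher, lower or neither. Prp31 at 1.47, CG6686 at 0.97, Prp6 at 0.71, Brr2 at 0.70 and CG12320 at 0.62 lie farthest to the right, and CG9344 at -0.65 farthest to the left.

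The RNAs of the particle come from 13 annotated gene copies of U4, U5 and U6, of which 12 could be tested, 1 rose and 4 fell, beside 30.8% and 31.7% of all genes. The values of near-identical copies are uncertain, and the 3 U6 copies had identical values. The copy that rose was snRNA:U4:25F, at 43.1, 60.8, 38.3 and 29.0 normalized counts in libraries labelled ecd-RNAi and 8.84, 7.94, 8.04 and 10.3 in control (log2 fold change 2.12, limma adjusted p = 6.31e-05). Its control mean of 8.77 lay under the minimum of 10, so it entered the test only through its level in libraries labelled ecd-RNAi. Without the filter on low values it was still called (limma adjusted p = 0.000128). The U4 copy with the highest counts, snRNA:U4:39B, singled out for its level after the values were seen, averaged 11569 normalized counts in libraries labelled ecd-RNAi and 12517 in control (limma adjusted p = 0.437), far above snRNA:U4:25F.

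All 4 copies that fell were of U5. The other U5 copies tested were not called: snRNA:U5:34A had a log2 fold change of 0.23 (limma adjusted p = 0.439) and snRNA:U5:38ABb of -0.41 (limma adjusted p = 0.459). The deepest falls were those of snRNA:U5:14B, by 1.10 on the log2 scale (10.4 ± 3.76 against 22.7 ± 2.80), snRNA:U5:38ABa, by 0.72 (29.9 ± 5.50 against 50.4 ± 12.7), and snRNA:U5:23D, by 0.60 (208 to 337 against 302 to 486, with overlapping groups), as normalized counts in libraries labelled ecd-RNAi against control. The U5 copy snRNA:U5:63BC averaged 523 and 684, also with overlapping groups. Its call (limma adjusted p = 0.0215) was lost without ecd-RNAi replicate 2 or 3 (limma adjusted p of 0.0586 and 0.0534). Among the 17 alternatives, the U6 copies were called higher only without ecd-RNAi replicate 4 (log2 fold change 0.72, limma adjusted p = 0.0244, against 0.54 and 0.0854 with all libraries).

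The genes snRNA:U4atac and snRNA:U6atac were matched by the same search on symbols, but their RNAs belong to the particle of the minor spliceosome, which shares U5 with the major one. Both were called higher without overlap, beside 30.8% of all genes called higher and 57.2% without overlap. Among libraries labelled ecd-RNAi both were highest in replicate 1 and lowest in replicate 4, as was snRNA:U4:39B. Their calls are therefore not shown to be independent. The level of snRNA:U4atac was 370, 292, 300.0 and 248 normalized counts in libraries labelled ecd-RNAi and 195, 205, 194 and 163 in control (log2 fold change 0.67, limma adjusted p = 0.000863). That of snRNA:U6atac was 111, 83.6, 105 and 67.8 in libraries labelled ecd-RNAi and 63.8, 36.4, 26.9 and 24.6 in control (log2 fold change 1.33, limma adjusted p = 0.00259).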

How the data were processed

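Total RNA of wing discs was sequenced after rRNA removal, in 4 libraries labelled ecd-RNAi and 4 control libraries, grouped by title; the labels call them biological replicates. The labels disagree on single-end or paired-end reads. Per the submitters' processing notes, FastQC, cutadapt 3.5, kallisto 0.46.1 and DESeq2 1.34.0 were used with BDGP6 and no settings, transcript set or strand option are stated there. The authors deposited normalized counts, a signal per gene that is never negative and not whole. The authors' deposited table of their comparison holds, per the file headers, p-values with and without adjustment, the Wald score, and log2 fold changes with standard errors. Its mean equals the row means to a relative difference of 4.78e-09. At the most frequent step, 71.3 to 86.9% of low values came within 0.1 of whole reads. The values were not treated as counts here, and whether a count model would suit them was not tested.

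Gene rows averaging 10 or more were tested with limma 3.58.1 in R 4.3.3, two-sided and with a mean trend, on log2(normalized count + 1), where a fold change understates that of low genes, with Benjamini-Hochberg adjustment over all 9380 and calls at 0.05. The procedure was also run on simulated data, whose outcome is not given and is not used for any result here. Per-kb levels divide by merged exon length. No depth-based intervals are given. The samples named alike by number were not paired by the labels. The named genes were the 9, members of the companion lists, genes overlapping the 9, and the 3 most similar genes for ecd, Prp8 and Prp31. The 9 genes, lists and tests were chosen with earlier results of these data known. Alternatives were other pseudocounts (0.5 and 5), filters (none, or 50), scalings, no trend, a replicate block, and leaving out each library.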

Additional observations from a re-analysis of the deposited data

Results flagged for a closer look

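Among 102 groups of 4 libraries (the 9 genes and their companions), 6 held a library far from the other 3, where chance gives about 1 in 20. Brr2 was highest in ecd-RNAi replicate 2 at 11657 normalized counts, against a group median of 10366. U4-U6-60K was lowest in control replicate 4 at 688, against a median of 726, and Dim1 was lowest in the same library at 294, against 314. CG6610 was lowest in ecd-RNAi replicate 1 at 276, against 300.0. The R2TP gene spag was highest in control replicate 3 at 470, against 443, and snRNA:U5:63BC in control replicate 1 at 849, against 634.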

How the results depend on the processing

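The calls of ecd, Prp8, Brr2, CG3436, Prp6 and Prp31 held their direction in all 17 alternatives. The ecd log2 fold change ran from 0.35 to 0.44 as single libraries were left out. U4-U6-60K, never called, changed sign with quantile normalization (-0.043) and without ecd-RNAi replicate 1 (-0.0051) or 3 (-0.012) or control replicate 4 (-0.0092), in a range from -0.012 to 0.049 as single libraries were left out. The LSm list had 3 genes lower at equal protein-coding sums and between 3 and 6 as single libraries were left out; entry factors had 1 higher with quantile normalization and 1 with the replicate block, and between 1 and 2 with a library left out; the 15 snRNA copies, U4atac and U6atac included, had 2 lower at a minimum mean of 50, and between 3 and 6 higher with a library left out. The cause was not tested, except that fewer copies are tested at that minimum. The median of all genes moved to 0.09 with no filter and to -0.06 with quantile normalization. With the replicate block 2796 genes were called higher and 2883 lower, against 2889 and 2970 without it. Correlations of same-numbered libraries ran from -0.052 to 0.053, so the numbers are not shown to pair samples. Precision is limited by 4 libraries a group.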
